A study of Mus musculus with 6 samples.

Results

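Core contractile genes of smooth muscle were examined in muscle and epithelium sorted from the mouse trachea at embryonic day 13.5. They were 10 rows of the deposited count table, chosen by symbol, among 23478 genes: Actg2, Acta2, Myh11, Mylk, Lmod1, Cnn1, Tagln, Smtn, Des and Synpo2. Both populations came from embryos labelled Bmp4 f/f; gamma SMA eGFP, that is, with floxed alleles of the growth factor gene Bmp4 and a green fluorescent reporter of gamma smooth muscle actin, and all 6 libraries were titled control. No Cre is named in the labels, so both groups are described as carrying the floxed alleles only. Muscle was collected by GFP and epithelium by an antibody to Epcam, a surface protein of epithelial cells, with 3 libraries each. The labels do not say whether libraries came from separate litters or pooled tracheas, so p-values measure the spread between these libraries. Actg2 encodes gamma smooth muscle actin, the protein the reporter is named for, so its difference partly follows from the sort. The other members are smooth muscle genes too, so their differences are not independent of the sort either.

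Smooth muscle shortens when myosin filaments pull on actin filaments that are anchored to dense bodies in the cytoplasm and to plaques at the membrane. Calcium bound to calmodulin activates myosin light chain kinase, which phosphorylates the regulatory light chain and starts cross-bridge cycling, and actin-binding proteins such as calponin tune the response. In the trachea the muscle forms a dorsal band that spans the open ends of the cartilage rings. Many contractile genes are bound by serum response factor at a 10-base element called the CArG box, and the cofactor myocardin drives them through that factor.

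The 10 genes were higher in muscle in 10 of 10 cases. Their median log2 ratio, the fitted log2 fold change of muscle over epithelium, was 6.48, against -0.10 over all 19375 genes tested. All 10 passed an adjusted p of 0.05 toward muscle (edgeR's quasi-likelihood test), where 6.58% of all tested genes did (10.7% in either direction). In all 10 the lowest muscle library lay above the highest epithelial library, which held for 16.4% of tested genes in that direction and 26.9% in either. Summed over the 10 genes, the level was 17752, 4370.3 and 19298 CPM (counts scaled to the library's adjusted total) in muscle replicates 1 to 3 and 129, 159 and 123 CPM in epithelium replicates 1 to 3. Muscle replicate 2 thus held the least contractile RNA of the muscle libraries, and still far more than any epithelial library. In bulk RNA, fewer muscle cells and less contractile RNA per cell cannot be told apart.

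**Figure D1:**
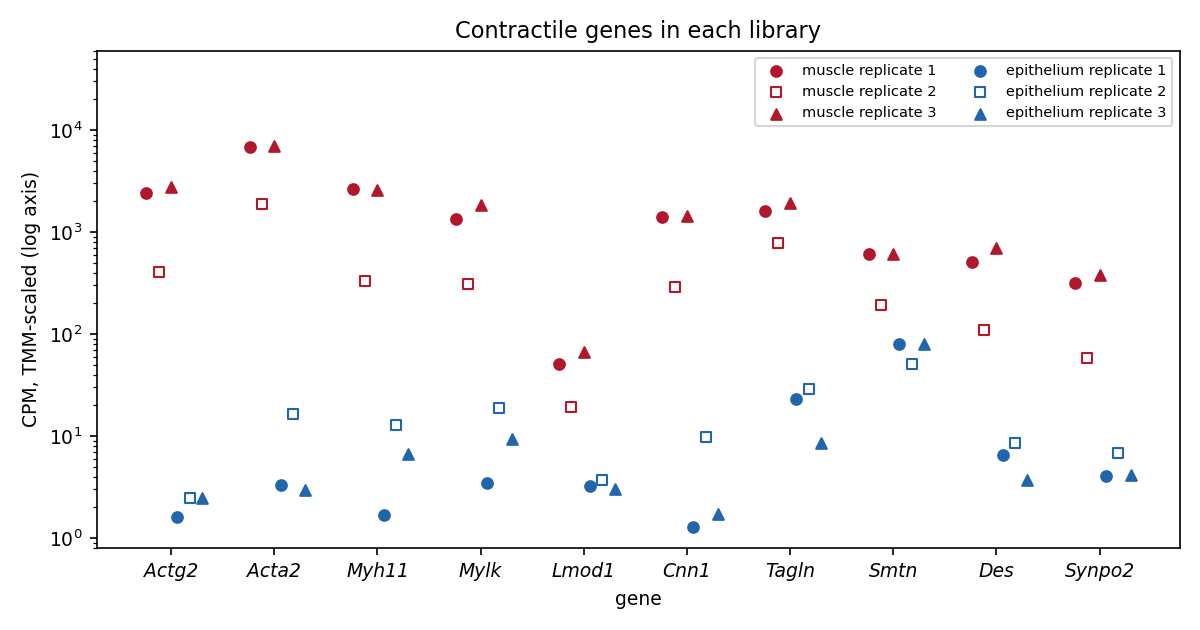
CPM of each contractile gene (log axis) in the 3 muscle libraries (red) and the 3 epithelial libraries (blue), 1 point per library. In each gene the red points lie above the blue ones, the open red square (muscle replicate 2) is the lowest red point, and the gap is widest in Actg2 and Acta2 and narrowest in Smtn.

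The sequence around the genes' RefSeq starts was searched for the CArG box, because the 10 genes were high in the same libraries. RefSeq (GRCm38.p6) promoter windows, 250 bases before to 50 bases after a gene's start, matched 7 of the 10: Acta2, Mylk, Lmod1, Cnn1, Smtn, Des and Synpo2. Of the 7 windows, 0 held a CArG box matching the consensus, which 535 of 32851 windows of all genes did (1.63%). With 1 mismatch allowed, 2 of the 7 windows held a match, as did 21.1% of all windows. Both were pairs of matches, in Acta2 and Lmod1. They are printed below 5′ to 3′ on the gene's strand, with the 10-base match in capitals and 10 flanking bases on each side, to show how closely they follow the element. The Acta2 matches lie at chr19:34255438-34255467 and chr19:34255388-34255417 on the minus strand, and the Lmod1 matches at chr1:135324614-135324643 and chr1:135324639-135324668 on the plus strand.
Acta2, first match: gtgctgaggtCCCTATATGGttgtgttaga
Acta2, second match: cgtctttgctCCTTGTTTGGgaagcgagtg
Lmod1, first match: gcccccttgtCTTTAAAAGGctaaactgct
Lmod1, second match: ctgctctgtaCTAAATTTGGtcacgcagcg
In Acta2 the matches begin 84 and 34 bases before the RefSeq start, and each departs from the consensus at 1 position inside the A/T core, position 3 in the former and position 5 in the latter, counted from the match's 5′ end. In Lmod1 they begin 189 and 164 bases before the start, and each departs at position 2, outside that core. The search covers these windows only and reads the letters on both strands, since the element is its own reverse complement in pattern. Binding of serum response factor was not measured, so a departure from the consensus does not show that a site is unbound. The windows of Mylk (chr16:34784700-34784999) and Smtn (chr11:3539243-3539542) lie wholly inside the gene spans given below. Sequence upstream of those 2 spans was therefore not searched.

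The 2 smooth muscle actin genes had the largest ratios of the 10. Actg2 (GRCm38 chr6:83512905-83536265, minus strand), gamma smooth muscle actin of visceral muscle, had 2438 CPM, 403 CPM and 2786 CPM in muscle replicates 1 to 3 and 1.60, 2.47 and 2.44 CPM in epithelium replicates 1 to 3. Every muscle library was at least 163-fold above the highest epithelial library. The log2 ratio was 9.77 ± 0.85 (SE, adjusted p = 0.00037). Acta2 (chr19:34241090-34255590, minus) encodes alpha smooth muscle actin, an early marker of the differentiating muscle cell. It had 6849, 1871 and 6946 CPM in muscle and 3.27, 16.3 and 2.93 CPM in epithelium, a log2 ratio of 9.47 ± 1.01 (adjusted p = 0.00085). Its epithelial libraries were uneven, with replicate 2 above the others, and all were far below the muscle libraries. The 50-base windows of the longest coding Actg2 transcript occurred in no other annotated transcript, and 0.35% of the windows of Acta2 did, in Actg1 and in genes and pseudogenes that resemble it, so that reads of that length seldom lie between the actins.

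The motor and its kinase are given next, and the log2 ratio of Cnn1, given below, lay between theirs. Myh11 (chr16:14194535-14291372, minus), the heavy chain of smooth muscle myosin, had 2634, 332 and 2605 CPM in muscle and 1.69, 12.9 and 6.65 CPM in epithelium. The muscle libraries did not overlap the epithelial ones, and replicate 2 held 12.7% of the mean of replicates 1 and 3, the lowest share of the 10 genes. The log2 ratio was 8.06 ± 1.09 (SE, adjusted p = 0.0022). Mylk (chr16:34745210-35002420, plus), myosin light chain kinase, had 1332, 311 and 1842 CPM in muscle and 3.48, 18.8 and 9.31 CPM in epithelium. Its log2 ratio was 6.80 ± 0.89 (adjusted p = 0.0018), again without overlap. The Mylk gene also encodes a long non-muscle form and the short protein telokin, and a count per gene does not separate them.

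Of the 4 members that bind and shape actin filaments, Cnn1 and Tagln had the larger ratios. Cnn1 (chr9:22099216-22109630, plus), calponin 1, which inhibits the myosin ATPase on actin, had 1408, 291 and 1453 CPM in muscle and 1.28, 9.76 and 1.73 CPM in epithelium. Its log2 ratio was 8.01 ± 1.07 (SE, adjusted p = 0.0021). Tagln (chr9:45929619-45936058, minus), transgelin or SM22, a calponin-related actin cross-linker that appears early in smooth muscle, had 1607, 784 and 1918 CPM in muscle and 23.3, 29.01 and 8.60 CPM in epithelium. Replicate 2 kept a larger share of Tagln than of any other of the 10 genes, 44.5% of the mean of replicates 1 and 3. The log2 ratio of Tagln was 6.15 ± 0.59 (adjusted p = 0.00049).

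Lmod1 and Smtn had the smallest ratios of the 10. Lmod1 (chr1:135324807-135368065, plus), leiomodin 1, nucleates actin filaments in smooth muscle. It was measured at 51.01, 19.1 and 66.1 CPM in muscle and 3.25, 3.74 and 3.04 CPM in epithelium, a log2 ratio of 3.77 ± 0.46 (SE, adjusted p = 0.0013). Its muscle level was the lowest of the 10 genes, and its epithelial libraries were the most even. Smtn (chr11:3517523-3540612, minus), smoothelin, an actin-binding protein of contractile smooth muscle, had 606, 193 and 608 CPM in muscle and 80.5, 50.8 and 80.4 CPM in epithelium. The groups were closest here: the lowest muscle library was 2.39-fold above the highest epithelial library, and the log2 ratio was 2.73 ± 0.45 (adjusted p = 0.0054). The epithelial mean of Smtn was 15.05% of its muscle mean, that of Lmod1 7.37%, and those of the other 8 genes between 0.12% (Actg2) and 1.98% (Synpo2).

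The log2 ratios of the 2 genes of the anchoring cytoskeleton lay between those of Tagln and Lmod1. Des (chr1:75360329-75368579, plus) encodes desmin, the intermediate filament of muscle that links dense bodies. It had 511, 109 and 696 CPM in muscle and 6.54, 8.62 and 3.72 CPM in epithelium, a log2 ratio of 6.13 ± 0.73 (SE, adjusted p = 0.0012). Synpo2 (chr3:123076519-123236149, minus), synaptopodin 2 or myopodin, bundles actin and binds filamin and alpha-actinin. It had 316, 57.6 and 379 CPM in muscle and 4.03, 6.75 and 4.13 CPM in epithelium, a log2 ratio of 5.67 ± 0.70 (adjusted p = 0.0014). Neither gene's groups overlapped, and in both the second muscle library held less than 20% of the mean of the others, 18.1% for Des and 16.6% for Synpo2.

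Per length of the longest coding transcript, the genes spanned a wide range within muscle. Acta2 had a mean of 2566 ± 1426 CPM per kb (SD, n = 3), Actg2 1407 ± 965 and Tagln 900.4 ± 367. Cnn1 (441 ± 276) and Myh11 (288 ± 205) came next, then Smtn (155 ± 79.2), Mylk (148 ± 99.6) and Des (145 ± 99.05 CPM per kb). Synpo2 had 35.5 ± 24.1 and Lmod1 11.5 ± 6.08 CPM per kb. Acta2 was highest, Cnn1 in place 4, Synpo2 in place 9 and Lmod1 in place 10 in each of the 3 muscle libraries. Actg2 and Tagln changed places in replicate 2, where Tagln had 491 and Actg2 303 CPM per kb, as did Myh11 (51.5) and Smtn (63.8). The order of Smtn, Mylk and Des also changed among libraries, and it changed when lengths were taken from the union of all annotated exons, which put Des before Smtn and Mylk. In epithelium Smtn was highest, with a mean of 23.4 CPM per kb, and Tagln next with 12.7.

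Counting could affect a few of these values. No strand is recorded in the labels' protocols, so reads from genes on the opposite strand cannot be told apart from those of the member. In GENCODE M21 (GRCm38) 4 members share exon sequence with such genes. Exons of Tagln overlap Pcsk7 over 108 bases and Gm48529 over 1241 bases, and exons of Smtn overlap Gm11946 over 714 bases. The Gm48529 overlap is 62.4% of the union of Tagln exons, and that of Gm11946 is 16.3% of the union of Smtn exons. Of the 50-base windows, 44.5% in Tagln matched Gm48529 and 14.8% in Smtn matched Gm11946. Mylk and Des overlap E130310I04Rik and Gm15179 over 548 and 220 bases. E130310I04Rik and Gm15179 had means under 3 CPM in both populations, and Pcsk7 had 65.8, 36.8 and 49.6 CPM in muscle and 39.0, 40.8 and 29.6 CPM in epithelium, so Tagln in epithelium (mean 20.3 ± 10.5 CPM) is the value nearest to a neighbour's level. Gm48529 and Gm11946 had no row under those symbols in the count table, so their levels are not known here. Windows of 50 bases in Myh11 matched the non-muscle myosins Myh9 or Myh10 in 0.41% of cases.

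The 10 genes also varied together among the muscle libraries. Replicate 2 was the lowest of the 3 in 10 of 10 genes and replicate 3 the highest in 9 of 10. The SD of log2 CPM among muscle libraries ranged from 0.68 in Tagln to 1.72 in Myh11, with a median of 1.35 over the 10 genes, against 0.51 over all tested genes and 0.34 over the 6984 genes with a muscle mean of at least 32 CPM. On the log2 scale replicate 2 minus the mean of replicates 1 and 3 was -2.31 in the median of the 10 genes, against -0.07 over all tested genes and -0.49 over those 6984. Under this scaling 6480 of those 6984 genes (92.8%) were lower in replicate 2 than in that mean, so the direction alone does not mark the 10 genes. The shares of all genes lowest in replicate 2 and highest in replicate 3 were not counted. Replicates 1 and 3 were close, with a median difference of 0.22 (replicate 3 minus replicate 1).

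**Figure D2:**
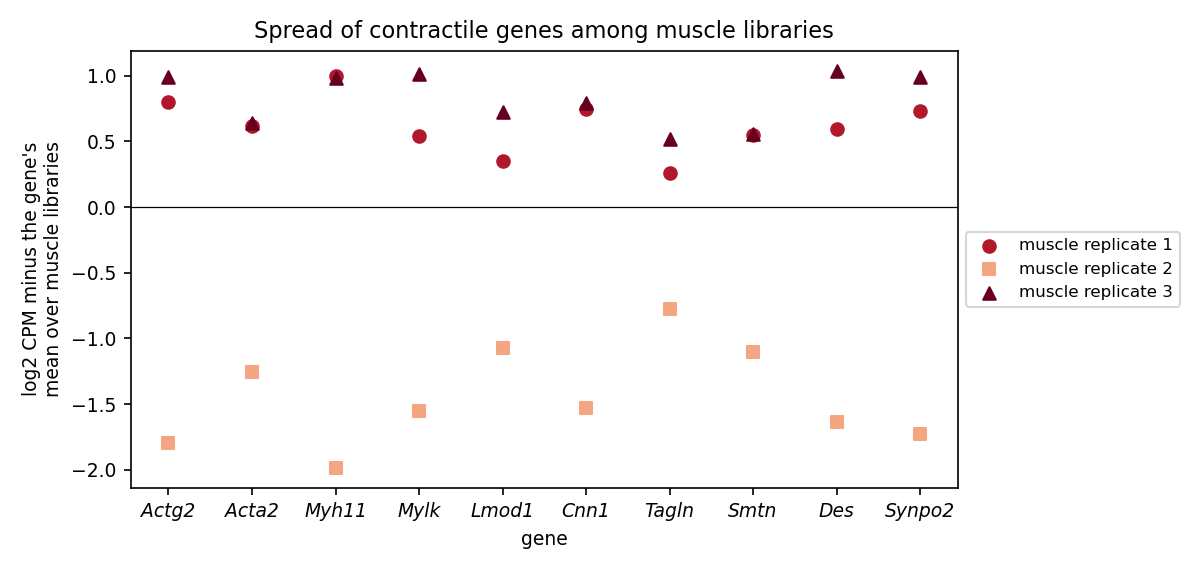
Log2 CPM of each contractile gene in each muscle library minus the gene's mean over the 3 muscle libraries. Replicate 2 (squares) lies below the others in each of the 10 genes, farthest in Myh11 and nearest in Tagln, while replicates 1 and 3 lie within 0.47 of each other.

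The shortfall in replicate 2 was not the same for each gene. As a percent of the mean of replicates 1 and 3, it held 12.7% of Myh11, 15.4% of Actg2, 16.6% of Synpo2, 18.1% of Des, 19.6% of Mylk and 20.3% of Cnn1. It held more of Acta2 (27.1%), Smtn (31.7%), Lmod1 (32.6%) and Tagln (44.5%). 6 of the 10 genes lay under 25%, a limit set after the values were seen, as did 51 of the 6984 genes with a muscle mean of at least 32 CPM (0.73%). Ratios within a library show the unequal change without any scaling. Myh11 stood to Tagln at 1.64, 0.42 and 1.36 in muscle replicates 1 to 3, and Actg2 stood to Acta2 at 0.36, 0.22 and 0.40. Of the 9 ratios to Acta2, 6 were lowest in replicate 2 and 3 were highest there, those of Tagln, Lmod1 and Smtn.

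Other measures moved with replicate 2, and their part in its low contractile level was not tested. Its column header holds a number read here as day 3 of month 9, shared only with epithelium replicate 2, where the other 4 libraries hold day 16. The headers do not say what these numbers are. It had the lowest total count of the muscle libraries, 17686605 against 31380201 and 49352790, and totals in epithelium were 54848820, 11847432 and 25231394. As a measure of background counts, 1456 olfactory and vomeronasal receptor genes together had 883 CPM by library total in it against 37.8 and 24.1 in muscle replicates 1 and 3. In epithelium replicates 1 to 3 they had 7.26, 1817 and 636 CPM, so that replicate 3, with the later number, was also above the muscle libraries of that number. Among the 3 muscle libraries the header number, the total and the background all set replicate 2 apart, and within muscle they cannot be told apart. The summed fibroblast, cartilage and pericyte markers were not lowest in it, although single markers were: 5 of 16 fibroblast and mesenchyme markers, among them Tbx5 (512, 161 and 436 CPM), 1 of 15 cartilage precursor markers and 5 of 12 pericyte markers. Counts of markers that passed are to be read against 6.58% of all tested genes toward muscle and 4.11% toward epithelium. The 16 fibroblast and mesenchyme markers, of which 10 passed toward muscle, summed to 9874, 11351 and 12860 CPM in muscle replicates 1 to 3, 15 cartilage precursor markers (4 passed) to 1111, 1817 and 1707 CPM, and 12 pericyte and vascular smooth muscle markers (6 of 11 tested passed) to 1139, 1289 and 1461 CPM. All 18 epithelial markers passed toward epithelium, and they summed to 22.5, 49.0 and 38.2 CPM in muscle and to 6361, 4733 and 6074 CPM in epithelium. Of 20 skeletal muscle markers 3 passed toward muscle. Their sum was 697, 274 and 135 CPM, and 8 of the 20 were lowest in replicate 2. It was highest in replicate 1, where Myog, a regulator of skeletal muscle differentiation, had 245 CPM against 1.20 and 17.3 CPM in replicates 2 and 3. Cardiac markers (3 of 9 passed) summed to 134, 174 and 153 CPM in muscle and endothelial markers (2 of 14 passed) to 167, 175 and 209 CPM. Neural and glial markers, of which 1 of 15 passed toward epithelium, summed to 53.7, 116 and 48.0 CPM in muscle and 161, 179 and 149 CPM in epithelium. Erythroid, immune and mesothelial markers summed to at most 77.5 CPM in each library. The adult globin genes Hba-a1, Hba-a2, Hbb-bs and Hbb-bt had 0 counts in all libraries, so they add nothing to the erythroid sum. The globin genes Hbb-y and Hba-x had 34.7 and 6.57 CPM in muscle replicate 3. The 0 counts are not read as absence, and the part of the counting in them was not tested. Among muscle libraries the immune (4.26, 77.5 and 29.5 CPM), mesothelial (2.58, 19.1 and 3.46 CPM), neural and cardiac sums were highest in replicate 2. The erythroid sum (14.8, 21.3 and 45.3 CPM) was highest in replicate 3.

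**Figure D3:**
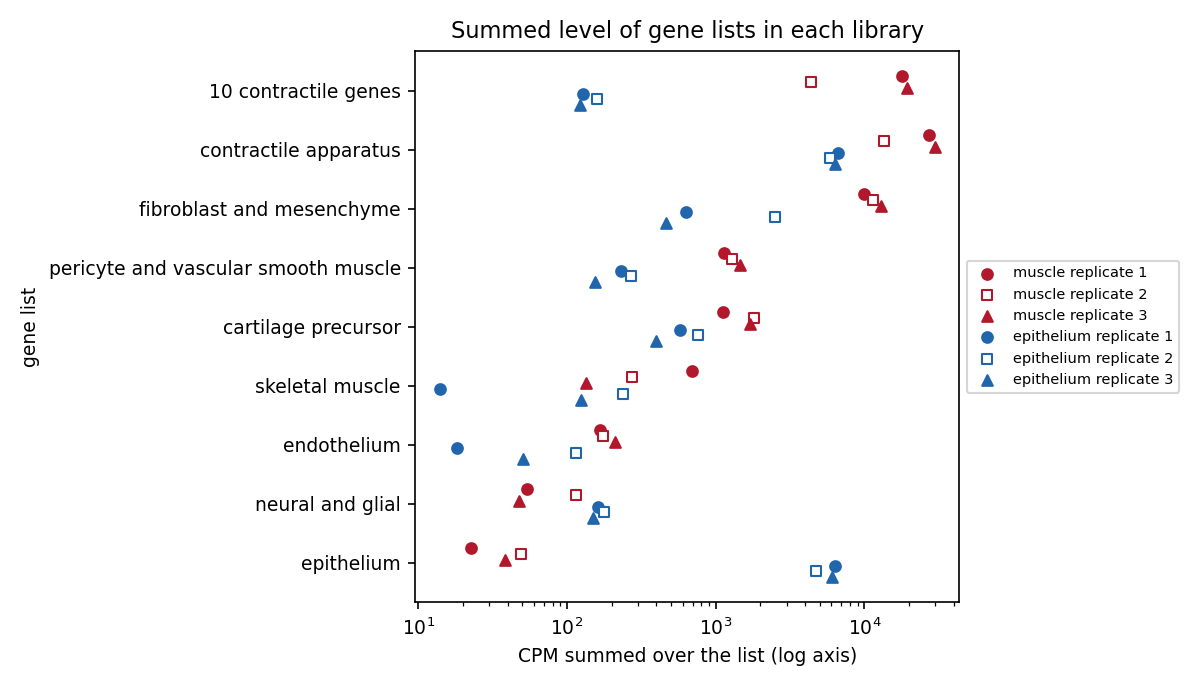
CPM summed over each gene list in each library (log axis), muscle in red and epithelium in blue, 1 point per library. Among red points the open square (muscle replicate 2) stands apart to the left in the 10 contractile genes (4370 CPM) and the contractile apparatus, and lies among the others in the fibroblast and mesenchyme list.

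In epithelium the contractile genes were highest in replicate 2 in 9 of 10 cases, all but Smtn. The share of all tested genes highest there was not counted, so the count is not read as a trait of these genes. Summed endothelial markers (18.3, 115 and 50.9 CPM in epithelium replicates 1 to 3) and immune markers (4.78, 67.8 and 33.8 CPM) were also highest in replicate 2. The summed epithelial markers and contractile apparatus list were lowest in it. Acta2 had 16.3 CPM in replicate 2 against 3.27 and 2.93, and Cnn1 9.76 CPM against 1.28 and 1.73. In that library the fibroblast and mesenchyme markers summed to 2493 CPM, against 634 and 464 CPM in epithelium replicates 1 and 3, and the receptor genes averaged 0.99 CPM per gene. Actg2 (2.47 CPM) and Lmod1 (3.74 CPM) lay within a few CPM of that background in this library, without regard to transcript length. Per kb of transcript, Lmod1 (0.95) and Synpo2 (0.96 CPM per kb) were the lowest of the 10 genes there, and Actg2 had 1.86. The receptor genes' level per kb was not computed. The part of these measures in the epithelial contractile levels was not tested. The share of the muscle level differed between genes within a library: in epithelium replicate 1 it was 0.063% for Acta2, 1.62% for Tagln and 17.2% for Smtn.

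Without muscle replicate 2 each of the 10 genes kept its call and its log2 ratio was larger, from 3.11 in Smtn to 10.3 in Actg2. In the 4 libraries that share the later header number, Acta2 had a log2 ratio of 11.04 (adjusted p = 7.6e-05) and Smtn of 2.84 (adjusted p = 0.00029), and all 10 genes passed. The earlier number has 1 library per group and allows no test. With a covariate for the background counts 7 of the 10 passed, and Myh11 (adjusted p = 0.072), Cnn1 (0.061) and Mylk (0.060) did not.

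Relatives of the 10 genes were compared next, because most of the contractile proteins belong to families with non-muscle or striated muscle members. Of the 23 relatives, 7 passed toward muscle and 1 toward epithelium, and 15 did not pass. Over all tested genes, 6.58% and 4.11% passed in those directions. The median log2 ratio of the relatives was 0.75. Without epithelium replicate 3, 3 passed toward muscle.

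Among actins, the striated muscle forms were high in muscle, and the cytoplasmic forms did not pass in edgeR's test without covariates. Acta1, skeletal alpha actin, had 379, 70.7 and 315 CPM in muscle and 4.57, 7.08 and 4.28 CPM in epithelium, a log2 ratio of 5.60 ± 0.64 (SE, adjusted p = 0.0010). Actc1, cardiac alpha actin, had 722, 204 and 948 CPM in muscle and 0.86, 19.8 and 3.53 CPM in epithelium (6.31 ± 1.17, adjusted p = 0.0097), and its call was lost without epithelium replicate 3 (adjusted p = 0.068) and with the covariate for background counts (0.11). Both were lowest in muscle replicate 2, at 20.4% and 24.4% of the mean of the others, and so were 8 of the 20 skeletal muscle markers. The part of skeletal muscle cells in these levels was not tested. Actb, cytoplasmic beta actin, had a log2 ratio of 0.97 ± 0.40 (adjusted p = 0.20) and passed without muscle replicate 2 (0.036), with the header number as a term (0.0044) and in the 4 libraries of the later number (0.014), and Actg1, cytoplasmic gamma actin, of 0.16 ± 0.30 (adjusted p = 0.91).

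Non-muscle myosin heavy chains differed in 2 directions. Myh14 was low in muscle, with 0.61, 6.19 and 3.82 CPM, and had 168, 289 and 272 CPM in epithelium, a log2 ratio of -6.11 ± 0.74 (SE, adjusted p = 0.0013). Myh10 was higher in muscle (1.68 ± 0.31, adjusted p = 0.0090), with an adjusted p of 0.060 without epithelium replicate 3. Myh9 had 124 ± 24.0 CPM (SD, n = 3) in muscle and 129 ± 41.2 CPM in epithelium, means closer than the SD within each group (log2 ratio -0.05 ± 0.29, adjusted p = 0.97).

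Other families showed the same split between the muscle form and its relatives in places. Cnn2, a calponin of many cell types, was higher in muscle (4.14 ± 0.41, SE, adjusted p = 0.00059), with 1625, 583 and 1280 CPM against 75.2, 65.6 and 56.6 CPM. Cnn3 did not pass (0.75 ± 0.23, adjusted p = 0.079), although it did without muscle replicate 2 (0.041) and in 7 other alternative fits. Neither did Tagln2 (-0.90 ± 0.33, adjusted p = 0.14) or Tagln3 (1.78 ± 0.67, adjusted p = 0.15). Tagln2 had 114, 242 and 243 CPM in muscle and 332, 328 and 458 CPM in epithelium, with no overlap.

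Vim, the mesenchymal intermediate filament vimentin, was higher in muscle (2.86 ± 0.27, SE, adjusted p = 0.00050). It had 644, 614 and 760 CPM there, so that replicate 2 held 87.5% of the mean of the others where it held 18.1% of Des. Nes (1.35 ± 0.44, adjusted p = 0.091) and Synm (-1.12 ± 0.61, adjusted p = 0.36), which encode other intermediate filament proteins, did not pass. Nes did pass without muscle replicate 2 (0.022) and without epithelium replicate 1 (0.011). Of the synaptopodin family, Synpo (1.69 ± 0.33, adjusted p = 0.011) and Synpo2l (3.20 ± 0.86, adjusted p = 0.048) were higher in muscle. Synpo lost its call without epithelium replicate 3 (adjusted p = 0.073) and with scaling by library size only (0.059). Synpo2l lost it in 5 of the 6 fits that left out a library, all but that without epithelium replicate 2, at up to 0.16, and under both other scalings (0.089 and 0.13).

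Relatives of leiomodin, smoothelin and the kinase did not pass, and most were scarce. Smtnl2 had 173 ± 127 CPM (SD, n = 3) in muscle and 202 ± 53.8 CPM in epithelium (log2 ratio -0.22 ± 0.46, adjusted p = 0.92). Lmod2, Lmod3, Smtnl1, Mylk2, Mylk3 and Mylk4 had means under 4 CPM in both populations (adjusted p from 0.81 to 0.999). Mylk held most of the counts of the light chain kinase genes in muscle.

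**Figure D4:**
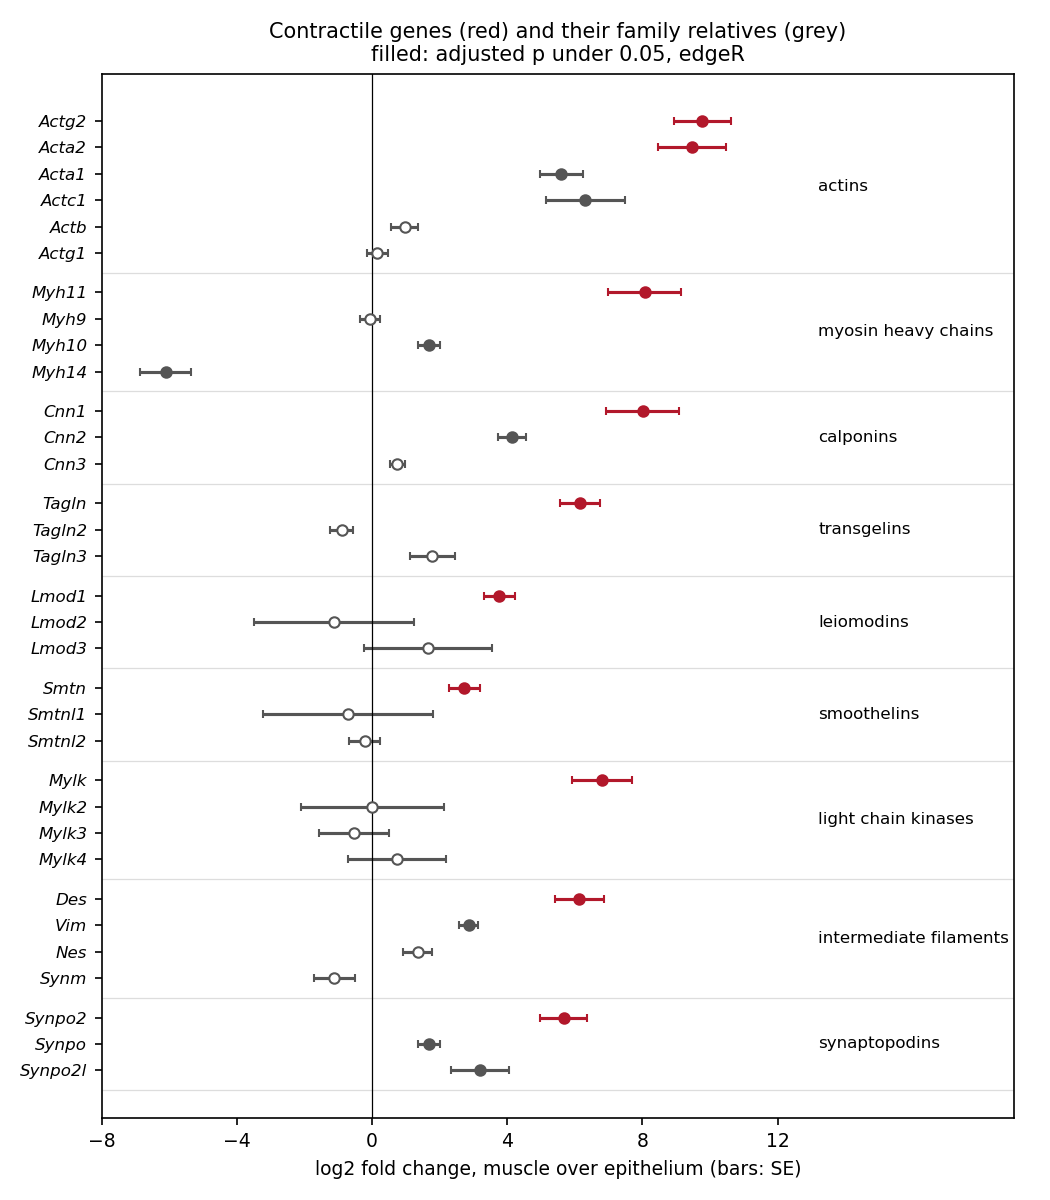
Log2 ratio, muscle over epithelium, with SE bars for the 10 contractile genes (red) and 23 relatives (grey), by family, filled where the adjusted p was under 0.05. The contractile gene lies to the right of its relatives in each family, Actg1, Myh9 and Smtnl2 lie near 0, and Myh14 lies far to the left.

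The wider contractile apparatus was described by a list of 64 genes of light chains, tropomyosins, dense plaques, kinases and phosphatases, calcium handling and transcriptional control. Of the 64, 39 passed toward muscle and 3 toward epithelium, and 22 did not pass, against 6.58% and 4.11% of all tested genes. The median log2 ratio was 2.04. Without epithelium replicate 3 the counts were 28 and 2. The 4 greatest ratios toward muscle belonged to Myl9, Tpm2, Jph2 and Myocd. Myl9, the regulatory light chain that Mylk phosphorylates, had 5111, 1493 and 5811 CPM in muscle and 44.9, 59.01 and 21.9 CPM in epithelium (log2 ratio 6.62 ± 0.66, SE, adjusted p = 0.00059). Tpm2, beta tropomyosin, had 670.1, 202 and 735 CPM and 6.08, 8.55 and 2.29 CPM (6.58 ± 0.69, adjusted p = 0.00075). Jph2, junctophilin 2, which ties the membrane to calcium stores, followed at 6.46 ± 0.83 (adjusted p = 0.0017), and its call was lost with the covariate for background counts (0.054). Each of the 4 was lowest among muscle libraries in replicate 2, as were 50 of the 64 genes in all. The share of all genes lowest there was not counted. Of genes with a muscle mean of at least 32 CPM, 92.8% were lower in replicate 2 than in the mean of replicates 1 and 3. The count is therefore not read as a trait of the list.

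Myocd, the cofactor myocardin, had 476, 78.1 and 373 CPM in muscle and 1.15, 14.1 and 8.83 CPM in epithelium. Its log2 ratio was 5.29 ± 0.98 (SE, adjusted p = 0.0096). Replicate 2 held 18.4% of the mean of the others, a share like those of Des and Mylk. The call of Myocd was lost without epithelium replicate 3 (adjusted p = 0.066), without muscle replicate 1 (0.051) and with the covariate for background counts (0.13). Its partner Srf, serum response factor, did not pass (0.39 ± 0.28, adjusted p = 0.57), with 32.3 ± 10.8 CPM (SD, n = 3) in muscle and 24.7 ± 1.53 CPM in epithelium. The related cofactors Mrtfa (-0.11 ± 0.29, adjusted p = 0.94) and Mrtfb (0.06 ± 0.23, adjusted p = 0.96), listed in the table under the older symbols Mkl1 and Mkl2, did not pass either.

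The 3 apparatus genes higher in epithelium, a share of the list near that of all genes, were Sorbs2, Dtna and Rock1. Sorbs2, an adaptor of actin and adhesion sites, had a log2 ratio of -2.36 ± 0.49 (SE, adjusted p = 0.015), and Dtna, alpha dystrobrevin of the dystrophin complex, of -1.68 ± 0.33 (adjusted p = 0.013). Rock1, a kinase that acts on myosin phosphatase, had 43.3 ± 10.1 CPM (SD, n = 3) in muscle and 84.2 ± 8.48 CPM in epithelium (-0.96 ± 0.25, adjusted p = 0.039). Rock1 lost its call in 5 of the 6 fits that left out a library, all but that without muscle replicate 3, at an adjusted p of up to 0.18.

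Genes with profiles most like the contractile genes were ranked by the root mean square difference in centred log2 CPM over the 6 libraries, among 7033 other genes whose average log2 CPM reached 5. The 10 nearest were Myl9 (0.37), Jph2 (0.42), Tpm2 (0.47), Tgfb1i1 (0.50), Mir143hg (0.61), Pcp4 (0.65), Acta1 (0.66), Sbspon (0.70), Il17b (0.80) and Sparcl1 (0.83). The 10 contractile genes themselves lay at 0.43 (Mylk) to 2.07 (Smtn) from their mean profile, since their log2 ratios differ. Tgfb1i1 encodes a focal adhesion protein and had 588, 153 and 514 CPM in muscle and 5.87, 12.03 and 5.60 CPM in epithelium. Mir143hg, the host gene of a smooth muscle microRNA cluster, had 118, 16.5 and 71.6 CPM in muscle and 0.39, 2.34 and 0.83 CPM in epithelium. In these 10 genes, as in the contractile ones, muscle replicate 2 was the lowest muscle library. That likeness was built into the ranking, which used the same 6 libraries. The ranking is a description over 6 libraries that share 1 contrast.

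The labels were checked on the genes of the sort and of the floxed locus. Epcam had 0.65, 2.20 and 1.74 CPM in muscle and 710.1, 543 and 541 CPM in epithelium (-8.62 ± 0.52, SE, adjusted p = 9.6e-05), and Actg2 stood the other way, as given above. Bmp4, whose floxed alleles both groups carry, was detected in all 6 libraries, with 60.8, 48.4 and 57.9 CPM in muscle and 30.9, 22.3 and 18.4 CPM in epithelium (1.22 ± 0.26, adjusted p = 0.018).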

How the data were processed

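RNA of 6 libraries was analysed from 1 deposited table of whole-number counts per gene symbol. Per the labels' protocols, tracheas were digested with TrypLE for 15 minutes, cells were sorted, RNA was extracted with Trizol, and libraries were made with SMART-Seq v4 and Nextera XT. These have no molecular identifiers, so counts include PCR copies. Per the submitters' processing notes, Trim Galore, Bowtie2, Cufflinks, DESeq and the build mm10 were used. Their roles and versions, the counting program and the annotation are not given in the sources used here.

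Groups came from titles. Low genes were removed with filterByExpr under R 4.3.3, libraries were scaled by TMM, and genes were tested with edgeR 4.0.16 (robust quasi-likelihood, two-sided, no covariate), with Benjamini-Hochberg adjustment over 19375 genes. SE was derived from the test statistic. CPM is a count per TMM-scaled library size, and log2 CPM a prior count of 2. Totals ranged from 11847432 to 54848820 counts. An exact permutation test of 3 against 3 cannot give a p under 0.10. The members, lists and alternatives were chosen with earlier results of these data known, and the lists support no independent inference. Named genes were the members, each relative, the 4 largest changes per direction in the apparatus list plus Myocd, Srf, Mrtfa and Mrtfb, and the 10 nearest profiles. 8 list genes were matched by synonym and 1 was not in the table. Alternatives used limma-voom (limma 3.58.1), DESeq2 1.42.0, other scalings, no filter, terms for the header numbers, the replicate number or background counts, and leaving out each library. The fits were tested on simulated data.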

Additional observations from a re-analysis of the deposited data

How the results depend on the processing

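The direction held for all 10 contractile genes in the 15 alternative fits, and 147 of 150 adjusted p stayed under 0.05. The exceptions were Myh11 (log2 fold change 8.59), Cnn1 (8.50) and Mylk (7.15) with a covariate for background counts. The median log2 fold change of the 10 genes ranged from 6.07 to 7.34. The count of all genes past the threshold, 2071, was 3539 with DESeq2 and 3178 with the header number as a term, and ranged from 1169 (without epithelium replicate 3) to 2573 when a library was left out. It was 1323 without muscle replicate 1. With library size only, the median of all genes moved from -0.10 to -0.33 and muscle's part of all calls from 61.5% to 42.0%. The replicate numbers were not taken to pair the libraries, since the labels state no pairing. Same-numbered libraries deviated together for numbers 1 (correlation 0.59) and 2 (0.73) but not 3 (-0.57). These correlations run over all tested genes, background counts included, and cannot show whether libraries are paired. With the replicate number as a block 2418 genes passed, and all 10 contractile genes did, at an adjusted p of up to 0.035 (Myh11), while Actc1 (0.056), Synpo2l (0.066) and Myocd (0.079) lost their calls and Actb (0.014), Cnn3 (0.017), Nes (0.042) and Tagln2 (0.047) gained one. The measures of spread among muscle libraries moved by less than the gene's own SD among those libraries under each of 3 scalings or prior counts. That limit is wide, since it is set by the spread itself. The median SD of the 10 genes was 1.08 with library size only against 1.35, and that of Tagln 0.41 against 0.68. With library size only, replicate 2 lay at -1.85 in the median of the 10 genes, and all tested genes at 0.39. The share of promoter windows with a CArG box was 21.1% with 1 mismatch. Exon union lengths, chosen after seeing the data, changed the per-length places of Smtn, Mylk and Des. Tagln2 also passed with DESeq2 (0.016), as did Actb (0.049) and Nes (0.035), and Tagln3 with the covariate for background counts (0.029). The limit from background was greatest in epithelium replicate 2, which has the lowest total count.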
